A study of Mus musculus with 8 samples.

Results

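Superoxide dismutases, glutathione peroxidases, catalase and peroxiredoxin 1 were followed in fibroblasts sorted from mouse back skin, through 10 genes chosen by name: Sod1, Sod2, Sod3, Cat, Gpx1, Gpx3, Gpx4, Gpx7, Gpx8 and Prdx1. All 10 were measured, by 18 probe sets annotated to a single gene, out of 17097 genes and 28898 such probe sets on the array. Both groups were mice whose age the labels give as 12 months, treated for 6 months. The treated group (n = 4) received 150 nmol of GW9662, which blocks the nuclear receptor PPARG for good by binding it covalently, in 300 µl of acetone on the back skin, 3 times a week. The vehicle group (n = 4) received the acetone alone. The labels name no strain, sex or engineered allele. Cells were taken by flow cytometry as Pdgfra-positive and CD34-positive and negative for CD45, CD117, CD24, CD31 and EpCam, after the subdermis had been removed. Each array held RNA of 5000 such cells of 1 animal, amplified over 21 cycles. One animal of each group was collected on the same day. That the sample numbers mark these days is inferred from the values and not stated in the labels; same-numbered animals are taken below as pairs on that basis, and pair differences are GW9662 minus vehicle. The question addressed is how long-term topical PPARG inhibition alters the transcripts of old dermal fibroblasts.

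Superoxide dismutases turn superoxide into hydrogen peroxide. Catalase in peroxisomes, and glutathione peroxidases and peroxiredoxins in several compartments, then reduce the peroxide. Gpx1, Gpx3 and Gpx4 are selenoproteins, whereas Gpx7 and Gpx8 carry cysteine at the active site and work in the endoplasmic reticulum. In dermis, Sod3 and Gpx3 are the secreted members of the group, and Sod3 binds to the extracellular matrix.

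None of the 10 genes differed between GW9662 and vehicle in limma's test over all genes. The largest difference was that of Sod3, extracellular superoxide dismutase, which was at 0.74 times the vehicle level and lower in 4 of 4 pairs. Gpx3, the secreted peroxidase, was at 0.89 times and lower in 3 of 4 pairs, and Gpx4, the reductase of lipid peroxides, at 0.90 times and lower in 4 of 4 pairs. For Sod3 and Gpx4 the other probe set gave a smaller difference, and for Gpx4 almost none. Gpx7 was at 1.10 times and higher in 4 of 4 pairs. Sod1, Cat, Gpx1, Gpx8 and Prdx1 lay within 0.03 of 0 on the log2 scale.

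Promoter sequences were compared first, since PPARG with RXR binds a direct repeat and since many antioxidant genes are known to carry an antioxidant response element. RefSeq windows (GRCm38.p6) from 250 bases before to 50 bases after a start site were found for 9 of the 10 genes, 12 windows in all, of which 4 belonged to Gpx4. Sod3 had no entry. The PPAR direct repeat, a pair of AGGTCA copies in the same direction with 1 base between, was in 0 of these 12 windows on either strand, and in 0.0396% of all 32851 windows. With so rare an exact repeat, 12 windows could hardly have held one. Looser or more distant repeats were not searched, so this absence says nothing of PPARG binding. The core of the antioxidant response element, TGAC and GC with 3 bases of any kind between, was in 2 of the 12 windows and in 12.4% of all windows. In 12 windows, 2 matches are near what that share would give. Both matches are printed because they are the only ones among these genes, and they say nothing of binding. Each sequence is given 5′ to 3′ along the gene, with the match, which reads on the opposite strand in both, in capitals.
Prdx1: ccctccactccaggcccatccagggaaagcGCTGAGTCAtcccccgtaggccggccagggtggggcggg
Sod1: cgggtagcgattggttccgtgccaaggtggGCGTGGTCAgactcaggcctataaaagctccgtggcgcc
The Prdx1 stretch is chr4:116685436-116685504 and the Sod1 stretch is chr16:90220676-90220744, both on the plus strand. The Prdx1 match lies 133 to 125 bases and the Sod1 match 56 to 48 bases before the start site.

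Another sequence searched was CCAAT, the box bound by the factor NF-Y. This search was added after the expression values and the windows had been seen. CCAAT on either strand was in 7 of the 12 windows, from the 5 genes Cat, Gpx3, Gpx4 (3 windows), Sod1 and Sod2, and in 37.4% of all windows. The windows of Gpx1, Gpx7, Gpx8 and Prdx1 held none. Windows with 3 or more matches made up 3.37% of all; among these genes they were those of Cat and 2 overlapping windows of Gpx4, which share their matches. For Cat and for the first of these Gpx4 windows, which hold the most matches, the 250 bases before the start are printed with each match (CCAAT, or ATTGG for the opposite strand) in capitals.
Cat: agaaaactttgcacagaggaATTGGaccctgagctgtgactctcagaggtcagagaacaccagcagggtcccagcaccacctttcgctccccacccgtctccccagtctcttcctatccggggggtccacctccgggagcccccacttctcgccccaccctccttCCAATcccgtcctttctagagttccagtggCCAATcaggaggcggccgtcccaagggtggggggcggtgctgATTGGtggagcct
Gpx4: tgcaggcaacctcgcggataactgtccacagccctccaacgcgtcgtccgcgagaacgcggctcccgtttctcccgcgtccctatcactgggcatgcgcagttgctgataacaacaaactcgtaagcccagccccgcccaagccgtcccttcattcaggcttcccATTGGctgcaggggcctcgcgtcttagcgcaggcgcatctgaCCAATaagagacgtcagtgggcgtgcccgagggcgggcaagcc
The Cat stretch is chr2:103485154-103485403 on the minus strand and holds all 4 matches of its window. The Gpx4 stretch is chr10:80053315-80053564 on the plus strand and holds 2 of the 3. The median GC content was 61.4% over the 12 windows and 52.7% over all windows. These matches describe the letters of the windows and say nothing of binding.

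The values are log2 signal intensities, so a difference of 1 is a doubling. Levels of different probe sets are not comparable as amounts of transcript. The levels of the 10 genes are therefore compared between animals alone, and marker levels serve as a rough check of the sort. The sample medians over all probe sets lay between 4.63 and 4.69. Vehicle 4 lay far from the rest along principal component 1, at 22.2, where the remaining 7 ran from -10.4 (GW9662 1) to 5.49. Pparg was at 4.85 ± 0.27 after GW9662 and 4.88 ± 0.23 in vehicle (SD, n = 4 each). Its values ran from 4.46 in GW9662 4 to 5.13 in vehicle 4, near the sample medians, and its signal over background is unknown. The mean of 10 fibroblast markers, among them Col1a1, Dcn and Lum, lay between 10.15 and 10.41 in the 8 samples. Pdgfra, the sorted receptor, had values from 4.63 to 5.13, near the sample medians. Of the marker lists of other cell types, the 2 measured of 5 erythroid genes averaged 5.26 to 5.51, and each further list (keratinocytes, endothelial cells, leukocytes, mast cells, adipocytes, pericytes, melanocytes, Schwann cells and skeletal muscle) averaged between 3.80 and 5.26. Single markers in these lists were brighter, among them Mitf (8.28), Cd68 (8.22), Kdr (7.84) and Krt10 (6.94), by their means over the 8 samples. Nothing in the labels says whether the animals of a group were housed or treated apart, so p-values measure the spread between these 8 samples.

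**Figure D1:**
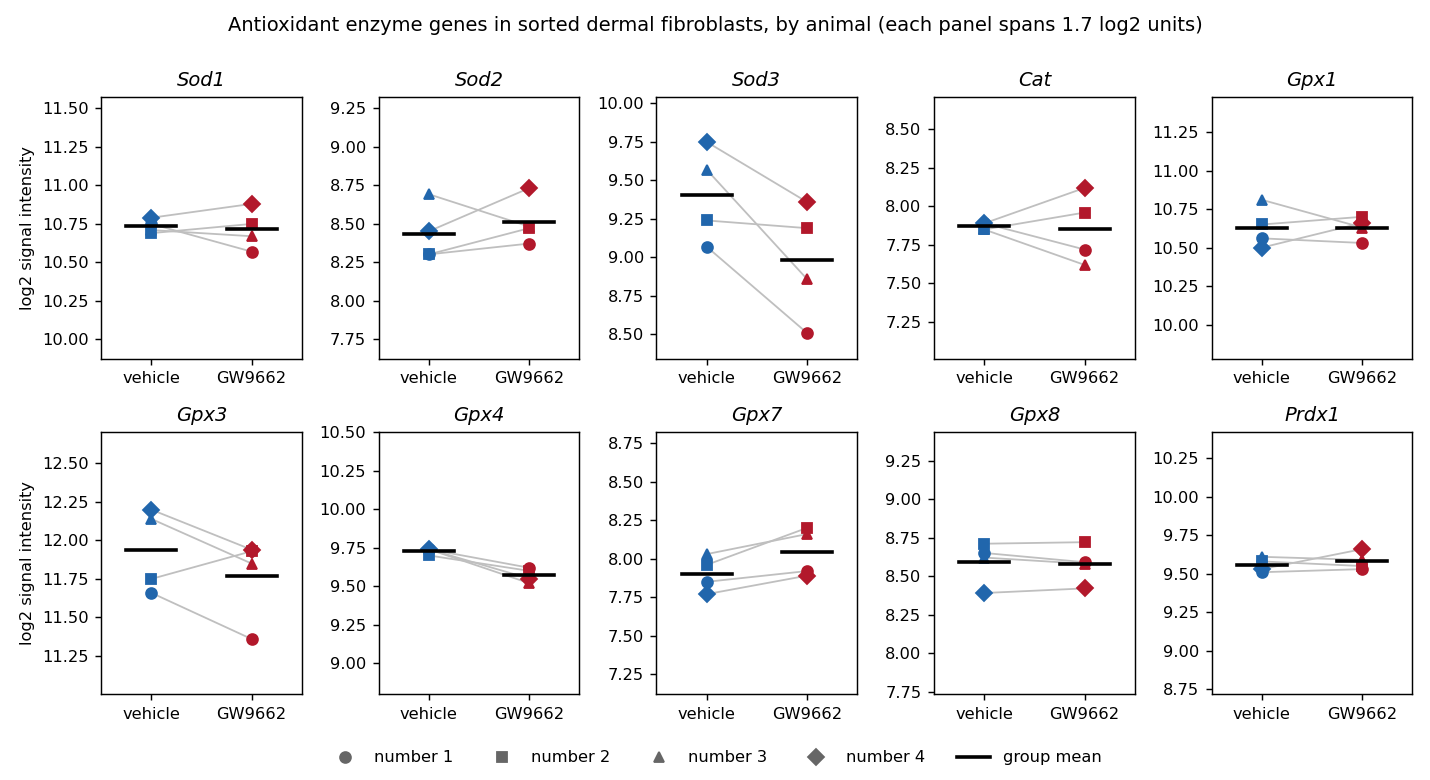
Log2 signal intensity of the 10 genes, each by the probe set used for the gene, in vehicle (blue) and GW9662 (red) animals; marker shapes and grey lines join same-numbered animals and black bars are group means. All 4 Sod3 lines and all 4 Gpx4 lines run downward, and the Gpx4 groups do not overlap, from 9.52 to 9.62 against 9.70 to 9.74.

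Sod3 (probe set 1417633_PM_at) had the widest spread of the 10 genes and the largest difference between groups. It measured 8.51, 9.19, 8.86 and 9.36 in GW9662 animals 1 to 4. In vehicle animals 1 to 4 it measured 9.07, 9.24, 9.57 and 9.75. The groups overlapped, since GW9662 2 and 4 were above vehicle 1, and the lowest and highest animals were GW9662 1 and vehicle 4. The pair differences were -0.56, -0.05, -0.71 and -0.39, all lower, though in pair 2 by little. The mean difference was -0.43 ± 0.19 (SE), a ratio of 0.74 with a 95% interval from 0.55 to 1.00 (limma adjusted p = 0.997). With the replicate number as a block the SE was 0.11 and the interval on the log2 scale ran from -0.67 to -0.18, with an unadjusted p of 0.00418, yet the adjusted p over all genes was 0.966. Without GW9662 1 the difference was -0.27. The second Sod3 probe set (1417634_PM_at) measured 7.85, 8.51, 7.98 and 8.81 after GW9662 and 8.04, 8.45, 8.74 and 8.84 in vehicle. It was lower in pairs 1, 3 and 4 and higher in pair 2 (-0.19, 0.06, -0.76 and -0.03), so that pair 3 carried most of its mean difference of -0.23 ± 0.23 (SE).

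Markers of other cells were set beside Sod3, because number 1 was the lowest and number 4 the highest animal of both groups. The mean of 8 endothelial markers was 4.58, 4.74, 4.83 and 4.87 in GW9662 1 to 4 and 4.50, 4.67, 4.95 and 4.93 in vehicle 1 to 4, lowest in number 1 of both groups. The group means of that list differed by only -0.01. The 3 measured of 6 adipocyte markers, of which Retn was the brightest at 5.34, averaged 4.06 to 4.15 after GW9662 and 4.08 to 4.28 in vehicle, highest in vehicle 4 and lowest in GW9662 1, as Sod3 was. Among vehicle animals the adipocyte list was lowest in vehicle 3, at 4.08, where Sod3 was at 9.57. The mean of 6 mast cell markers went from 3.81 in GW9662 1 to 3.88 in GW9662 4. In vehicle it went from 3.80 in number 1 to 3.86 in number 4. The adipocyte and mast cell lists both lay below the sample medians of 4.63 to 4.69, and their shifts were small beside the Sod3 range of 1.24. The 2 measured erythroid genes were highest in number 4 of both groups, at 5.44 and 5.51. Leukocyte markers were highest in vehicle 4, at 4.93, but lowest in GW9662 4, at 4.85. Other lists ran otherwise, wholly or in part. Pericyte markers were highest among GW9662 animals in number 1, at 4.90. Skeletal muscle markers were lowest in GW9662 1, at 4.14, but highest in vehicle 1, at 4.24. Melanocyte markers were highest in GW9662 1, at 5.26, where Sod3 was lowest. Fibroblast markers were lowest in vehicle 4, at 10.15, where Sod3 was highest. The sort against CD31 was made to remove endothelial cells. The part of these cell types in the Sod3 values was not tested, and fewer cells of a type cannot be told apart from less RNA per cell in such samples.

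Sod1 (1451124_PM_at), the copper and zinc enzyme of the cytosol, was nearly level across animals. It measured 10.57, 10.75, 10.67 and 10.88 after GW9662 and 10.75, 10.69, 10.71 and 10.79 in vehicle. The groups overlapped throughout, GW9662 animals held both ends of the range, and the pairs split 2 to 2. The difference was -0.02 ± 0.07 (SE), with an interval from -0.18 to 0.15. The other Sod1 probe set (1440222_PM_at) stood at 7.55, 7.48, 7.26 and 7.19 against 7.18, 7.38, 7.26 and 7.02. It was higher in 3 pairs and equal in pair 3, with a difference of 0.16 ± 0.10 (SE), so the sign of Sod1 depends on the probe set.

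Sod2, the manganese enzyme of mitochondria, had 4 probe sets. The set used for the gene (1448610_PM_a_at) measured 8.37, 8.47, 8.48 and 8.73 after GW9662 and 8.30, 8.30, 8.69 and 8.45 in vehicle. The highest animals were GW9662 4 and vehicle 3, and the difference was 0.08 ± 0.11 (SE), an interval from -0.16 to 0.31. It was 0.01 without GW9662 4 and 0.16 without vehicle 3. Over the 4 sets the differences ran from -0.0025 to 0.13. In every one of these sets pair 3 was lower, by 0.16 or more, and pair 4 was higher, by 0.22 or more. The 4 sets thus shared the sign of pairs 3 and 4.

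Catalase, the peroxisomal enzyme that splits hydrogen peroxide, varied among GW9662 animals and little among vehicle animals. Cat (1416429_PM_a_at) measured 7.72, 7.96, 7.62 and 8.12 after GW9662. In vehicle it measured 7.89, 7.85, 7.85 and 7.89. The SDs were 0.23 and 0.02 (n = 4 each), and no test of that difference in spread was run. The pair differences were -0.17, 0.11, -0.23 and 0.23, and their mean was -0.02 ± 0.10 (SE), with an interval from -0.24 to 0.21. The second Cat probe set (1416430_PM_at) had the same sign in each of the 4 pairs (-0.32, 0.21, -0.23 and 0.26), with a difference of -0.02. Its vehicle SD was 0.09 and its GW9662 SD 0.22, the same order by a smaller margin.

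Gpx4 reduces lipid hydroperoxides in membranes. Its probe set 1451695_PM_a_at measured 9.62, 9.60, 9.52 and 9.55 after GW9662 and 9.74, 9.70, 9.74 and 9.74 in vehicle. Every GW9662 animal was below every vehicle animal, which held for 1 of the 10 genes and for 1.05% of all genes in that direction. The difference was -0.16 ± 0.05 (SE), a ratio of 0.90 with an interval from 0.82 to 0.97, and the unadjusted p was 0.0157 (limma adjusted p = 0.997). This was the 1 gene of the 10 with an unadjusted p under 0.05, a bound that 3.38% of all genes passed. The pairs were lower by -0.12, -0.10, -0.22 and -0.19. Leaving out any 1 sample gave -0.17 to -0.14.

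The second Gpx4 probe set, 1456193_PM_x_at, gave another answer. It measured 9.05, 9.15, 9.10 and 9.26 after GW9662 and 9.03, 9.19, 9.19 and 9.18 in vehicle, and the groups overlapped. Its difference was -0.01 ± 0.07 (SE), lower in 2 pairs and higher in 2, and with the mean of both sets Gpx4 was at -0.08. The letter x in such names marks sets whose probes can also match other sequences, and the letter a marks sets that match several transcripts of the gene. Which of these 2 sets follows the Gpx4 transcript more closely was not tested.

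Gpx1 (1460671_PM_at), the cytosolic glutathione peroxidase, had no difference in mean at all. It measured 10.53, 10.70, 10.63 and 10.66 after GW9662 and 10.56, 10.65, 10.81 and 10.50 in vehicle. Both group means were 10.63, and the interval of the difference ran from -0.17 to 0.17, a ratio from 0.89 to 1.13. The widest values, 10.50 and 10.81, were both of vehicle animals.

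Gpx3 (1449106_PM_at), the secreted plasma-type peroxidase, measured 11.36, 11.93, 11.85 and 11.94 after GW9662 and 11.66, 11.75, 12.14 and 12.20 in vehicle. GW9662 1 was the lowest animal and vehicle 4 the highest, as for Sod3. Pairs 1, 3 and 4 were lower, by -0.30, -0.29 and -0.26, and pair 2 was higher by 0.18. The difference was -0.17 ± 0.16 (SE), with an interval from -0.52 to 0.18. It was -0.03 without GW9662 1, -0.08 without vehicle 4 and -0.10 without vehicle 3. In the other direction it was -0.26 without vehicle 1 and -0.23 without vehicle 2, so its size rests on single samples.

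Gpx7 and Gpx8, the enzymes of the endoplasmic reticulum, were each measured by 1 probe set, and neither passed the test. Gpx7 (1417836_PM_at) measured 7.92, 8.20, 8.16 and 7.89 after GW9662 and 7.85, 7.96, 8.03 and 7.77 in vehicle, with overlapping groups. Each pair was higher, by 0.07, 0.24, 0.13 and 0.12, and the difference was 0.14 ± 0.09 (SE), an interval from -0.06 to 0.34. It was 0.09 without GW9662 2. Gpx8 (1424099_PM_at) measured 8.59, 8.72, 8.58 and 8.42 after GW9662 and 8.65, 8.71, 8.62 and 8.39 in vehicle. Its pairs were close to equal, between -0.06 and 0.03, and number 4 was the lowest animal of both groups. The SD of the Gpx8 pair differences was 0.04, while the SDs within groups were 0.12 and 0.14 (n = 4 each). The Gpx8 difference was -0.02 ± 0.09 (SE), and with the block its interval was -0.16 to 0.13.

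Prdx1, a thioredoxin-dependent peroxidase of the cytosol, had the narrowest range of the 10 genes by the probe set used for each. Its brighter probe set (1437014_PM_x_at) measured 9.53, 9.55, 9.59 and 9.66 after GW9662 and 9.51, 9.58, 9.61 and 9.53 in vehicle, a range of 0.15 over 8 animals. The difference was 0.03 ± 0.06 (SE; 0.025 before rounding) with an interval from -0.10 to 0.15. The name of that set also carries the letter x. The other set (1416000_PM_a_at) measured 9.35, 9.49, 9.41 and 9.65 against 9.45, 9.52, 9.72 and 9.35, with pair differences of -0.10, -0.03, -0.31 and 0.30 and a wider range of 0.37. Its mean difference was -0.04 ± 0.09 (SE), so here too the sign turned with the probe set.

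**Figure D2:**
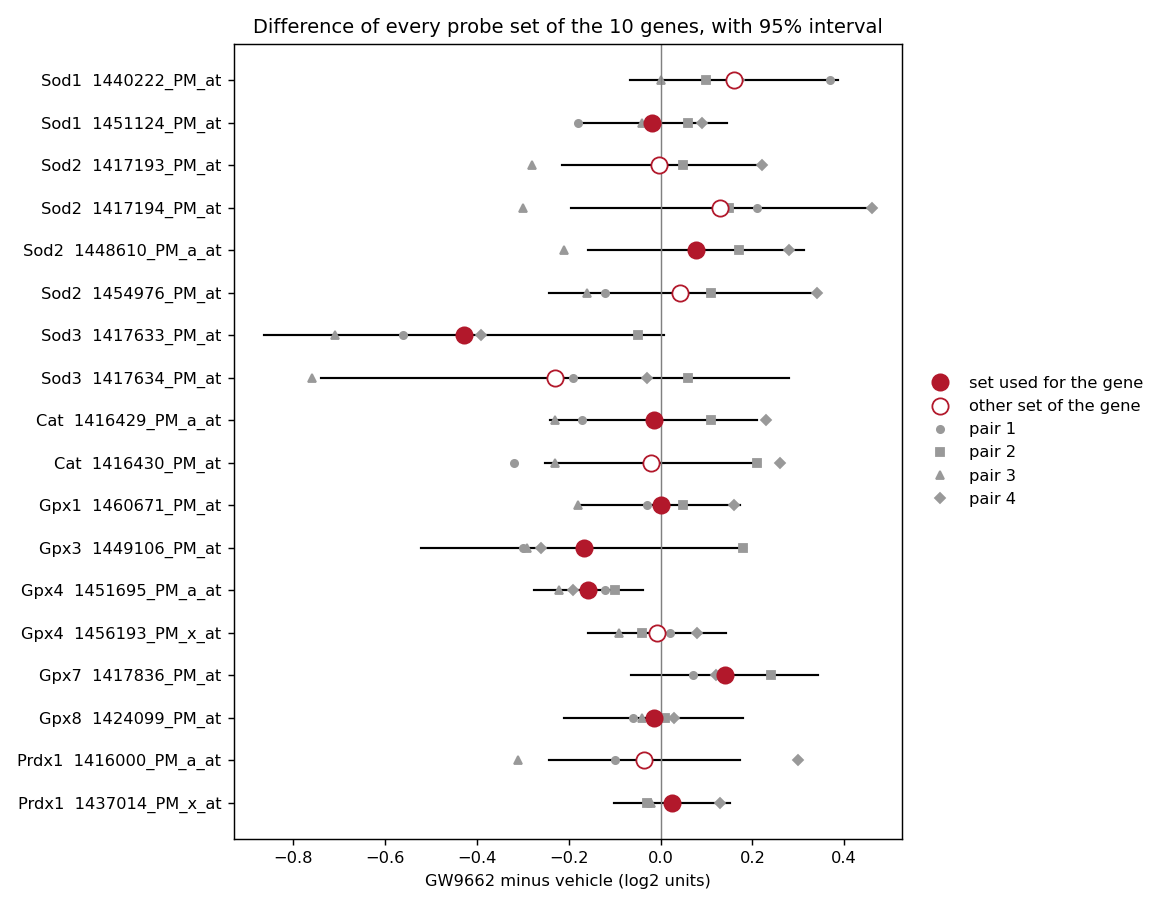
GW9662 minus vehicle in log2 units for each of the 18 probe sets, with the 95% interval of limma fitted over all probe sets with 1 gene (lines), the set used for the gene (filled), other sets (open) and the 4 pair differences (grey). Only 1451695_PM_a_at of Gpx4 has an interval clear of 0, and the second set of Gpx4 is at -0.01.

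Where a gene had several probe sets, their profiles over the 8 animals were set against each other after each was centred on its own mean. For Cat the sets differed by 0.062 per animal on average and shared the sign of 4 of 4 pairs. For Sod3 the distance was 0.121, a small part of its range of 1.24, and the sign was shared in 3 of 4 pairs. For Gpx4 the distance was 0.091 beside a range of 0.22, and the sign was shared in 2 of 4 pairs. For Sod2 the closest set lay 0.054 from the one used and the dimmest 0.247, beside a range of 0.43. The Sod1 sets lay 0.184 apart beside a range of 0.31, and the Prdx1 sets 0.077 beside 0.15. For Sod1, Gpx4, Prdx1 and the dimmest set of Sod2 the distance was thus large for the gene's range. Over the 18 probe sets 11 were lower, 6 higher and 1 equal. Several sets read the same gene in the same animals, so this is not a count of separate genes. Over all genes, by the set used for each, 51.8% were lower.

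In all, 6 of the 10 genes were lower, 3 higher and 1 equal, with a median log2 difference of -0.02 (-0.005 over all 17097 genes) and a median absolute difference of 0.05 (0.06 over all genes). The limma test called 0 of the 10 at an adjusted p under 0.05, as it called 0.0% of all genes. At an unadjusted p under 0.05 it called 1 of the 10, Gpx4, beside 3.38% of all genes. The second Gpx4 probe set was at -0.01. With the replicate block 2 of the 10, Sod3 and Gpx4, had an unadjusted p under 0.05, where 4.83% of all genes did, and 0 had an adjusted p under 0.05. Sod3 and Gpx4 made 2 of 10 genes lower in 4 of 4 pairs, beside 5.93% of all genes. Gpx7 made 1 of 10 higher in 4 of 4 pairs, beside 5.46%. The widest interval was that of Sod3, and it reached -0.86. For the other 9 genes the intervals stayed between -0.52 and 0.34.

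The pairs differed in direction across the 10 genes. Pair 3 was lower in 9 genes, all but Gpx7, with a median of -0.20, while 48.7% of all genes were lower in that pair. Pair 1 was lower in 7 genes, beside 50.5% of all genes. Pair 2 was higher in 7 genes, beside 49.2%, and pair 4 in 7, with a median of 0.11, beside 45.7%. GW9662 1 was the lowest animal for Sod1, Sod3 and Gpx3, and GW9662 4 was the highest for Sod1, Sod2, Cat and Prdx1. Vehicle 4 was the lowest for Gpx1, Gpx7 and Gpx8 and the highest for Sod3 and Gpx3. The range over the 8 animals had a median of 0.38 for the 10 genes, beside 0.35 for all genes and 0.41 for the brighter genes.

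Among the genes with the widest ranges, profiles over the 8 samples were compared with those of 8255 brighter genes, each centred on its own mean. Closest to Sod3 were Tbx3, Lepr and Bmp7, with mean absolute differences of 0.125, 0.129 and 0.133. Gpx3 ranked 9 for likeness to Sod3 (0.150) and the next of the 10 genes, Cat, ranked 850. Closest to Gpx3 were Tbx3, Pygm and Helb, at 0.079 to 0.084. For likeness to Gpx3, Sod2 ranked 370 (0.148) and Sod3 only 406 (0.150). The distances were not scaled to the range of a gene, so a rank depends on which gene it is counted from. Closest to Cat were Gna13, Mindy2 and C1galt1, at 0.025 to 0.049, with Sod1 at rank 14 (0.056). These are descriptions of 8 samples.

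**Figure D3:**
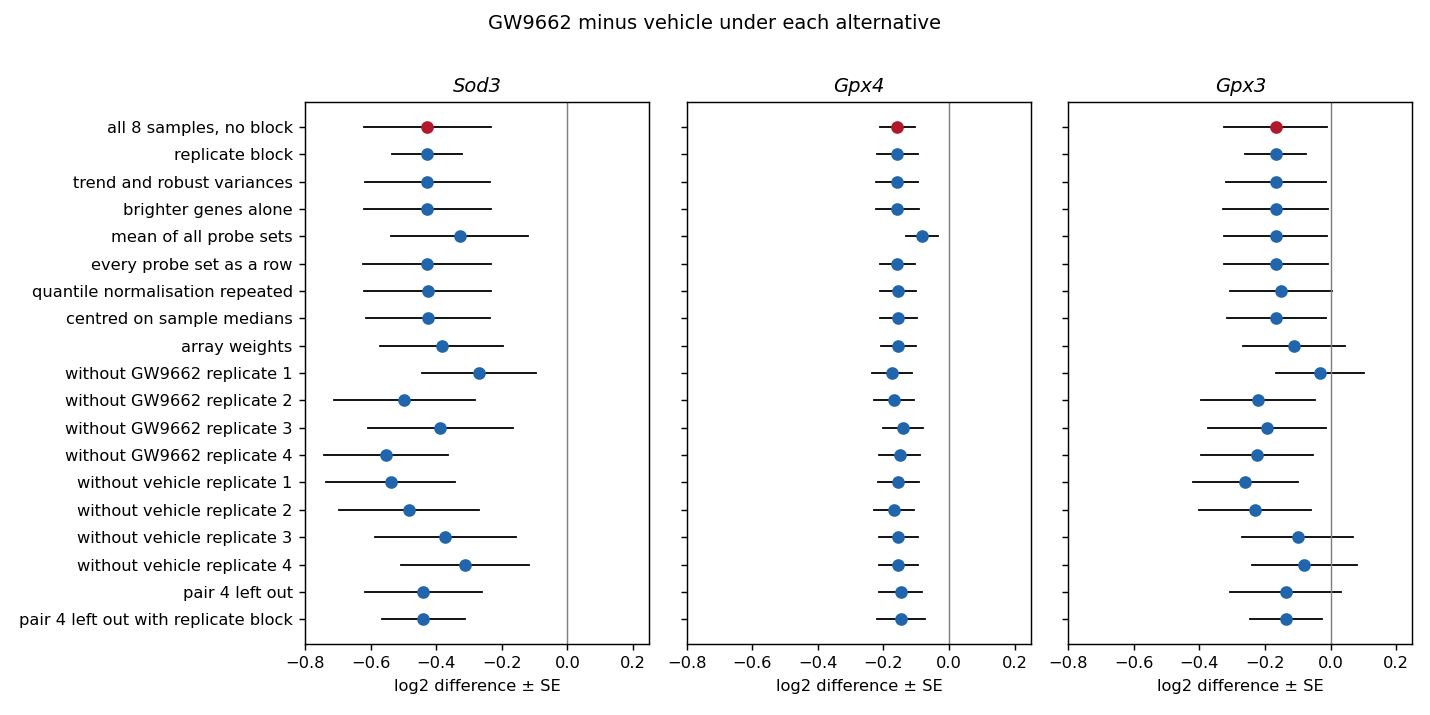
GW9662 minus vehicle for Sod3, Gpx4 and Gpx3 in log2 units with its SE, for all 8 samples (red) and under each of 18 alternatives (blue). All 3 genes keep a negative sign; Gpx3 comes to -0.03 without GW9662 1, and Gpx4 to -0.08 with the mean of its probe sets.

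Genes that work with these enzymes were read from 6 lists, and in none did a gene pass limma's adjusted test. Among other peroxiredoxins and glutathione peroxidases, 3 of 6 measured genes were lower and 3 higher (median -0.0075). Prdx2, a cytosolic peroxiredoxin, was at -0.18 ± 0.16 (SE), and Gpx5 at -0.12 ± 0.10. Thioredoxin, glutaredoxin and repair enzymes had 11 of 19 higher and 8 lower (median 0.02). The methionine sulfoxide reductases Msrb2 and Msra, which repair oxidised methionine, were at -0.20 ± 0.11 and 0.13 ± 0.09 (SE). In the list of selenoprotein synthesis and selenium supply, 7 of 8 measured genes were lower and 1 higher (median -0.07). Eefsec, the elongation factor that brings selenocysteine to the ribosome, was at -0.19 ± 0.09 (SE), and Sepsecs, which makes selenocysteine on its tRNA, at -0.11 ± 0.11. Over all genes, 51.8% were lower.

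The list of metal delivery to the dismutases, mostly copper genes, had 6 of 7 genes lower and 1, Slc25a39, higher (median -0.06), all within 0.11 of 0. Atox1, a copper chaperone, was at -0.11 ± 0.10 (SE), and the copper transporter gene Slc31a2 at -0.06 ± 0.08. Peroxisome import, by which catalase reaches its organelle, had 7 of 10 measured genes lower and 3 higher (median -0.03). Pex5, the receptor that carries enzymes into peroxisomes, was at -0.19 ± 0.08 (SE) and lower in 4 of 4 pairs. It was the 1 gene of the 59 in the 6 lists with an unadjusted p under 0.05 (0.0499, adjusted 0.997 in limma), beside 3.38% of all genes. With the mean of all its probe sets Pex5 was at -0.09. With the replicate block in limma its unadjusted p was 0.0845. By that fit 3 other list genes, Eefsec, Msrb2 and the mitochondrial glutaredoxin gene Glrx5, were under 0.05, beside 4.83% of all genes. Glrx5 was chosen after its values were seen. So were the 12 named list genes, as the 2 of smallest unadjusted p in each list. Pex13, which docks that receptor, was at 0.12 ± 0.06 (SE) and higher in 4 of 4 pairs. Sources of superoxide and hydrogen peroxide had 6 of 9 measured genes lower and 3 higher (median -0.04). Ero1b, an oxidase of the endoplasmic reticulum, was at -0.15 ± 0.08 (SE), and Cybb, the NADPH oxidase subunit of phagocytes, at -0.13 ± 0.09. Cybb had values from 3.70 to 4.17 and Gpx5 from 3.53 to 4.01, both below the sample medians of 4.63 to 4.69. With the mean of all probe sets Cybb was at -0.04, Pex13 at 0.06, Prdx2 at -0.10 and Ero1b at -0.12. Atox1 was then at -0.12 and Slc31a2 at -0.09, both farther from 0 than by the set used. Leaving out 1 library moved 10 of these 12 named genes by over 1.5 times. Without GW9662 1, Gpx5 was at -0.05, Msrb2 at -0.09, Eefsec at -0.12, Atox1 at -0.03 and Cybb at -0.05. Prdx2 was at -0.07 without GW9662 4, and Msra was at 0.08 without GW9662 3. Slc31a2 was at -0.12 without vehicle 4, Pex5 at -0.12 without vehicle 3 and Sepsecs at -0.06 without vehicle 1.

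**Figure D4:**
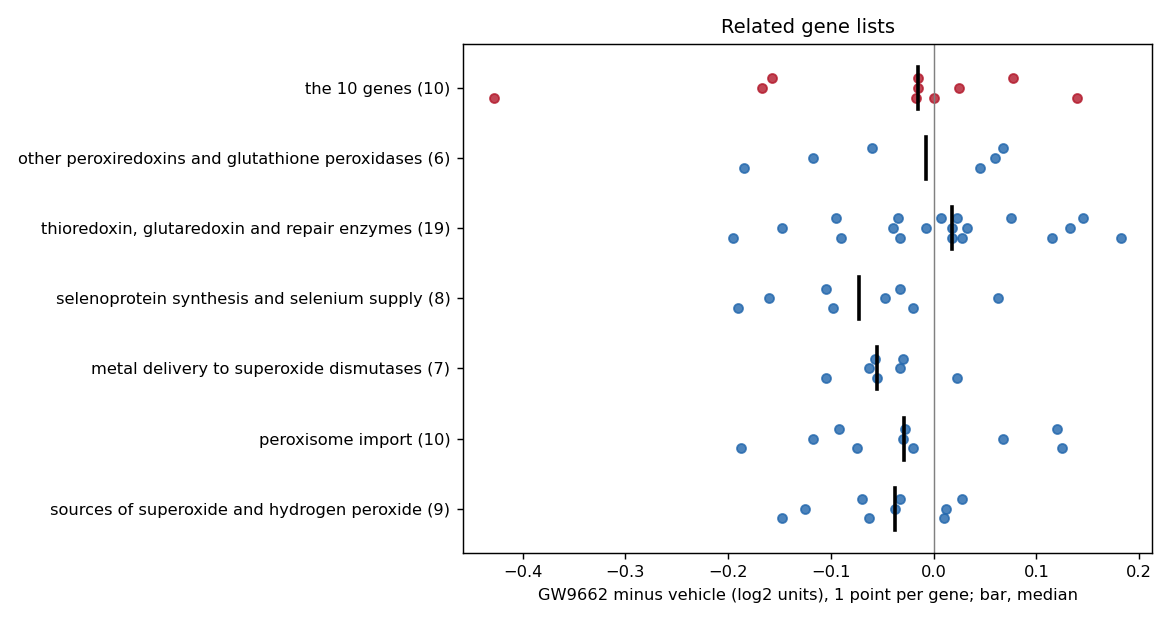
GW9662 minus vehicle in log2 units for the 10 genes (red) and for the measured genes of 6 related lists (blue), 1 point per gene, with a bar at each list's median. Sod3 at -0.43 lies farthest from 0, and the list medians lie between -0.07 and 0.02.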

How the data were processed

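The 8 arrays hold 1 animal each. The authors deposited log2 intensities of 45141 probe sets, rounded to 2 decimals. The submitters' processing notes name RMA and affy without versions, and log base 2 was inferred from their range. No detection calls were used, so background is unknown, and amplification from few cells can alter relative signals. All 8 columns were matched to samples. No further scaling was applied.

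Probe sets were named by the platform annotation, with symbols updated by gene ID from RefSeq: 28898 were tied to 1 gene. Those tied to several genes (551) and those without a name here (15692) did not enter. The probe set with the highest mean over 8 samples stood for a gene. GW9662 was compared with vehicle by limma 3.58.1 in R 4.3.3 (lmFit, eBayes, no covariate, two-sided), with Benjamini-Hochberg adjustment over 17097 genes and a threshold of 0.05. Values of single probe sets came from the same fit over all probe sets with 1 gene. The procedure was tested on simulated data. The share of simulated differences that the procedure found is not given here. How often it would call differences as small as those above is therefore not known from that test.

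The design text puts 1 animal of each group on a day. Same-numbered samples departed from their group means together (correlations of 0.203, 0.163, 0.114 and 0.165), so the numbers were taken as pairs, though no label ties a number to a day, and a fit with the replicate block was run beside the unblocked one. No samples shared more than 3.05% of values.

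The genes, lists and alternatives were chosen with earlier results of these data known. Named genes were the 10, the 2 of smallest p per list, the 3 closest profiles for the 3 genes of widest range, and Pparg and Pdgfra. Alternatives were the replicate block, quantile normalisation, median centring, array weights, trended and robust variances, the mean of probe sets, every probe set as a row, a filter on dim genes and samples or pair 4 left out. The number of animals limits the precision. Protein sequences were not used here.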

Additional observations from a re-analysis of the deposited data

Results flagged for a closer look

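In 36 groups of 4 samples (18 probe sets in both treatments), 3 samples stood apart from the other 3 of their group by Dixon's ratio, where chance gives about 1 in 20. GW9662 1 had a Gpx3 level of 11.36, against 11.85 to 11.94 in the other GW9662 animals. Vehicle 2 was at 9.70 for Gpx4 on 1451695_PM_a_at, where the other 3 vehicle animals were all at 9.74, a gap of 0.04 in values given to 2 decimals. Vehicle 1 was at 9.03 on the second Gpx4 probe set, against 9.18 to 9.19 in the others.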

How the results depend on the processing

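The difference was recomputed under 18 alternatives for 24 genes: the 10, the 12 named from lists, Pparg and Pdgfra. Gpx1 has a difference of 0 and so no direction; its values ran from -0.0533 to 0.06. Of 409 values of the rest, 386 kept their direction and side of the threshold and 23 turned in sign, in 7 genes. The block, trended and robust variances, the filter on dim genes and every probe set as a row cannot change the difference itself. Without pair 4, the block likewise repeats the unblocked difference. The kept signs under these settings were therefore fixed in advance. The smallest adjusted p over all genes was 0.997 in limma without a block, far from the threshold. None of the 427 passed an adjusted p of 0.05. Sod2, Sod3, Gpx3, Gpx4 and Gpx7 kept their sign throughout. The count of the 10 genes called was 0 under each alternative. The count over all genes was 1 (Col14a1) with the replicate block and pair 4 left out, and 0 otherwise; the block changed no other call. With the mean of all probe sets Sod1 was at 0.0712 and Prdx1 at -0.005, and with quantile normalisation repeated Sod1 was at 0.0164. Without pair 4, with or without the block, Prdx1 was at -0.01, Prdx2 at 0.03, Pparg at 0.19 and Pdgfra at -0.03. With array weights Pparg was at 0.0764. Leaving out 1 sample gave -0.0717 to 0.0317 for Sod1, -0.103 to 0.0633 for Cat, -0.0825 to 0.0375 for Gpx8, -0.0008 to 0.0425 for Prdx1 and -0.10 to 0.11 for Pparg. The causes were not tested. Signal over background is unknown, which limits what the dimmer probe sets can show.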
